A study of Mus musculus with 9 samples.

Results

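The 6 genes described here are the MEF2 genes Mef2a, Mef2b, Mef2c and Mef2d, the serum response factor gene Srf and the myocardin gene Myocd. A CHD7 peak was assigned to one of them when its midpoint fell in the gene's regulatory domain, which ran from 5 kb upstream to 1 kb downstream of the transcription start site (TSS) and was extended to the same basal stretch of the next gene or by at most 1 Mb. They are 6 of 21911 protein-coding genes treated in this way, and their domains held 3 of the 3761 peaks in the deposited list. The libraries came from CUT&RUN, in which an antibody tethers a nuclease to a chromatin protein and the released DNA is sequenced, on WT cardiac progenitor (CP) cells at day 5 of the differentiation of mouse ESCs to cardiomyocytes. The ESC line was derived in house from C57BL6 mice, which leaves 1 genetic background, and 3 biological replicates each were made with the CHD7 antibody, with anti IgG as negative control and as input, 9 libraries in all. The authors' list joins the anti-CHD7 replicates and keeps peaks that overlapped in at least 2 of them. It gives positions only, so the depth of the libraries, the height of a peak and the spread between replicates are unknown, no value below has a replicate error and no comparison was tested. A list of peaks holds no expression values, and the labelled cell type could not be checked against its markers.

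MEF2 proteins and SRF belong to the MADS-box family of transcription factors. MEF2 factors bind a consensus rich in A and T in the control regions of muscle genes, and class IIa histone deacetylases hold them inactive until a kinase signal removes the repressor. SRF binds the CArG box and takes its direction from partners, either ternary complex factors at growth-responsive genes or myocardin and the myocardin-related factors at cardiac and smooth muscle genes. In the heart, Mef2c is a target of ISL1 and GATA4 in the second heart field, and myocardin is made in cardiac and smooth muscle cells. CHD7 is an ATP-dependent chromatin remodeller that does not read a DNA sequence of its own.

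The 3 peaks are shown first, because they are all the listed peaks assigned to the 6 genes and differ widely in sequence. Each line gives the central 300 bases on the plus strand of GRCm38 (mm10), with motif matches in capitals. The peak of Mef2d covered chr3:88177694-88178144, and the stretch shown is chr3:88177769-88178068, with 2 SP/KLF matches, 1 T-box match and 1 match to the CTCF core. The peak of Mef2a covered chr7:67366037-67367169, and chr7:67366453-67366752 is shown. The peak of Myocd covered chr11:65406488-65407389, and chr11:65406789-65407088 is shown. In these last stretches the capitals mark sites that differ by 1 base from the MEF2 consensus, first in each line, or, second in the line of Mef2a, from the CArG box. The exact matches of the Mef2a and Myocd peaks, described with the motifs, lie outside the bases shown.
Mef2d peak: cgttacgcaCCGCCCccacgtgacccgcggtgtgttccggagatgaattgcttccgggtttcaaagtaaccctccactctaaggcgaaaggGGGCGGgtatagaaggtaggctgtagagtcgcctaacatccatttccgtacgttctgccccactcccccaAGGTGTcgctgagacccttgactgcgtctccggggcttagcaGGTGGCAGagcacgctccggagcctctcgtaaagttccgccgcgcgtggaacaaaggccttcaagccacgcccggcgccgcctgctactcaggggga
Mef2a peak: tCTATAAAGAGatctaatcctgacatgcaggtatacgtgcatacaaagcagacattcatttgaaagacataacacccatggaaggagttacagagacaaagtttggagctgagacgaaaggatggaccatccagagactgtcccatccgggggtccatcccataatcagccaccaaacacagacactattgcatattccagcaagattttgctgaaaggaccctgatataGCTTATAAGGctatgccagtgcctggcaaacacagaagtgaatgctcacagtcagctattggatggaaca
Myocd peak: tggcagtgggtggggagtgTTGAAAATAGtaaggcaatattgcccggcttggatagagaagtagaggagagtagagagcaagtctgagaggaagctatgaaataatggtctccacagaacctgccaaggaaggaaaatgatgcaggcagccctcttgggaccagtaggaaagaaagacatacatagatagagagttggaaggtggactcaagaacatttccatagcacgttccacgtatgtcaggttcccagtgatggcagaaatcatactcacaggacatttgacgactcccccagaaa

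The family was divided evenly. Mef2a, Mef2d and Myocd had exactly 1 peak each, and Mef2b, Mef2c and Srf had none. The share of 3 in 6 (50%, Wilson 95% CI 18.8 to 81.2, counting error only) stands beside 22.7% of all genes with at least 1 peak, and 16.8% of all genes had exactly 1. The interval of the share includes the value for all genes. Per length, the 6 domains of 3022175 bp together carried 0.993 peaks per Mb, against 1.48 per Mb over the domains of all genes. The empty domain of Mef2c set this direction, since it made up 1713266 bp of the total, and the other 5 domains carried 2.29 peaks per Mb. For the genes with a peak the values were 2.39 per Mb for Mef2a, 5.87 for Mef2d and 1.61 for Myocd. With 1 peak each, these values only restate the length of the domain. They cannot be set against the value for all genes, which includes genes without a peak.

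None of the 3 peaks lay at a promoter of the gene to which it was assigned. The 6 genes have 37 TSSs of protein-coding transcripts, and no peak came within 5 kb of any of them. In the basal part of the domain alone, 0 of 6 genes had a peak, and 3.16% of all genes did. From the TSS used for the domain, the nearest peak was 6255 bp away for Mef2a, 35347 bp for Mef2d, 122481 bp for Srf, 129817 bp for Mef2b, 136998 bp for Myocd and 1159870 bp for Mef2c, beside a median of 166055 bp over all genes. Mef2a was therefore the closest of the family to CHD7, with 4.66% of all genes having a peak as near or nearer. At the other end, 89.3% of all genes had a peak as near as Mef2c or nearer.

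**Figure D1:**
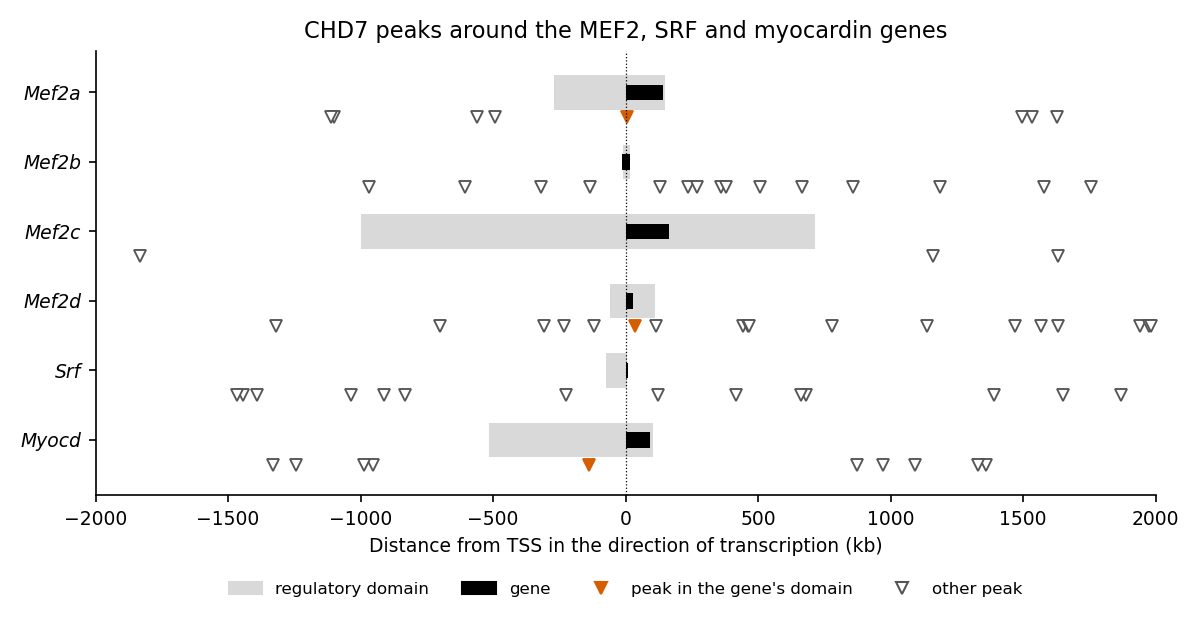
CHD7 peaks within 2000 kb of the TSS of each gene, with distance in kb in the direction of transcription on the horizontal axis. Grey bars are regulatory domains, black bars genes, filled triangles the peaks in the gene's own domain and open triangles all other peaks, and the widest grey bar, that of Mef2c, holds no triangle.

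The peak of Mef2a, peak1486, was the only peak inside the body of any of the 6 genes. Mef2a (ENSMUSG00000030557.17) is on the minus strand of chromosome 7 from 67231163 to 67372858, and encodes a MEF2 factor that is widely made in muscle. Its peak was 1133 bp wide, lay at +6255 bp from the TSS in intron 1 of 22791 bp, and overlapped no exon. The nearest annotated gene of any kind other than Mef2a was Gm44668, an unverified transcript that ended 1113 bp away. The next peaks on the chromosome were 497816 bp and 1487955 bp away. The rule assigned peak1486 to Lysmd4 as well, whose TSS was 143995 bp off.

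Most of the intronic peak of Mef2a was repeat sequence. Repeat-masked bases made up 85.3% of it, where the median over all peaks was 13.2%, and 59 of 3761 peaks (1.57%) passed 80%. Of the 1078 windows of 56 bases in the peak, the read length in the study, 1010 occurred once on the 21 chromosomes (93.69%). The most frequent window occurred 1394 times. All windows were unique in the peaks of Mef2d and Myocd and in 82.7% of all peaks. Whether reads of repeat copies contributed to the peak of Mef2a was not tested, since the reads were not analysed here. Its GC content was 46.2%, close to the median of 47.5% over all peaks.

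The peak of Mef2d, peak634, lay beyond the gene's end and at the start of an antisense gene. Mef2d (ENSMUSG00000001419.17) is on the plus strand of chromosome 3 from 88142372 to 88172086 and encodes a broadly made MEF2 factor. The peak began 5608 bp past that end, and the middle of the peak was at +35347 bp. The antisense gene 1700113A16Rik, named here after its position was seen, runs on the minus strand from 88177785 down to 88171556 and shares 531 bp with Mef2d. It has 3 transcripts, each with its own TSS, and 2 of these TSSs lay inside the peak while the other was 2 bp outside. The midpoint was 134 to 227 bp from them. Among all peaks, 119 (3.16%) had a TSS of a gene without protein-coding class and no protein-coding TSS within 1 kb, and 585 (15.6%) had a protein-coding TSS within that distance. The nearest start of a Mef2d transcript of any kind, Mef2d-207, which is not protein-coding, was 9667 bp away. The rule also assigned the peak to Rhbg, an ammonium transporter gene with its TSS at 76790 bp.

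In base composition the peak of Mef2d stood near the edge of the list. It was narrow at 451 bp, with 11.2% of all peaks as narrow or narrower. Its GC content of 62.5% was among the highest, and 143 of 3761 peaks (3.8%) passed 60%. The ratio of observed to expected CpG was 0.817, against a median of 0.212 over all peaks and 0.153 in the peak of Mef2a. No base of it was repeat-masked.

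The peak of Myocd, peak2368, was intergenic. Myocd (ENSMUSG00000020542.18) is on the minus strand of chromosome 11 from 65176561 to 65269989, and the peak lay upstream, at -136998 bp from the TSS. The nearest gene of any kind was the lincRNA gene Gm12295, with a TSS 41141 bp away, and the other gene assigned was Map2k4, a kinase of the stress pathway, with its TSS at 381358 bp. The peak was 902 bp wide, with a GC content of 48.4% and a CpG ratio of 0.336. Repeats covered 2.11% of it. It stood alone, since the neighbouring peaks were 1008966 bp and 815687 bp away.

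**Figure D2:**
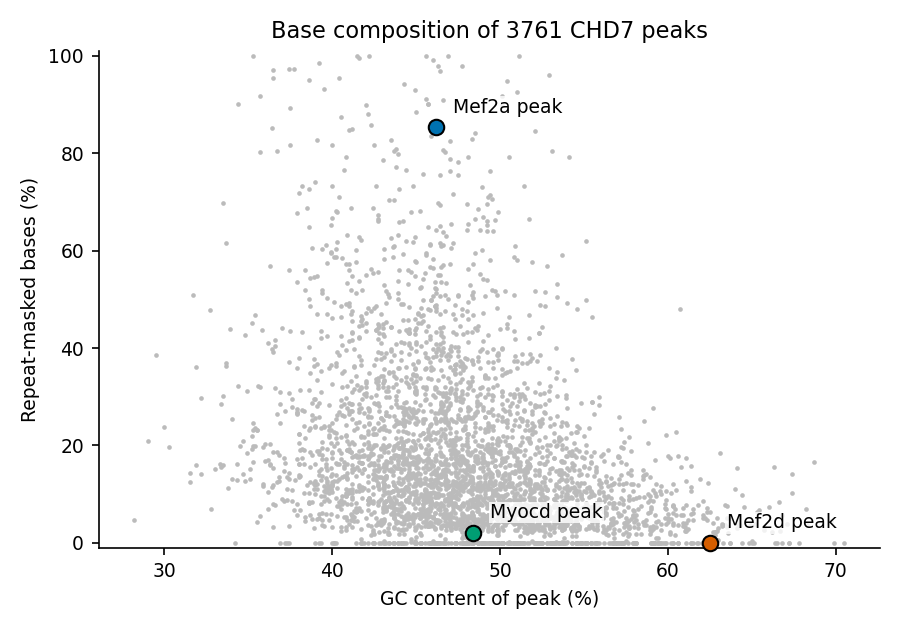
GC content (horizontal axis, %) and repeat-masked bases (vertical axis, %) of the 3761 CHD7 peaks, each a grey point, with the peaks of Mef2a, Mef2d and Myocd as large coloured points. The Mef2a peak sits at 85.3% repeat, the Mef2d peak at 62.5% GC with no repeat, and the Myocd peak in the middle of the GC range.

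Mef2c, which the right ventricle and outflow tract need to form, had no CHD7 peak, although its domain was the longest of the 6. Mef2c (ENSMUSG00000005583.16) is on the plus strand of chromosome 13 from 83504034 to 83667080, with 31 annotated transcripts and 23 distinct TSSs of protein-coding ones. The domain measured 1713266 bp, and 99.3% of all domains were no longer than that. The nearest peak downstream, peak2844, lay at +1159870 bp from the TSS used and 1011016 bp from the closest TSS of any protein-coding Mef2c transcript. It was assigned to Tmem161b and Ccnh. Upstream the nearest was peak2843 at -1833460 bp, assigned to Lysmd3 and Polr3g.

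The gene thus lay in a stretch of 2992826 bp without a peak. Of the 3740 intervals between neighbouring peaks, 162 (4.33%) were at least as long, and the median was 275324.5 bp. On chromosome 13, 4 of 175 intervals were at least as long, that of Mef2c included. The stretch held 5 protein-coding genes and 0 unsequenced bases. Many genes with a domain of this size had no peak. Among the 160 genes with a domain at least as long as that of Mef2c it was 102 (63.8%), and on the autosomes it was 80 of 138 (58%), with 5 as the highest number of peaks. An empty domain says that no peak was called there, since weaker binding is not recorded in the list.

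Mef2b and Srf also had no peak, in the shortest domains of the family, though that of Srf was near the median of 90182 bp over all genes. Mef2b (ENSMUSG00000079033.10), on the plus strand of chromosome 8 from 70139711 to 70167488 and best known for its role in germinal centre B cells, had a domain of 23250 bp, and 12.4% of all domains were as short or shorter. The TSS used for Mef2b was 13067 bp downstream of its most upstream one, which gave a domain of 32694 bp, also without a peak. The closest protein-coding TSS of Mef2b was 120703 bp from a peak. Srf (ENSMUSG00000015605.6), on the minus strand of chromosome 17 from 46548329 to 46556175, had a domain of 77116 bp, and 45.1% were as short or shorter. The peaks nearest to both lay at the genes of others. For Mef2b these were peak1695 at +129817 bp, which was 232 bp upstream of the TSS of Homer3, and peak1694 at -133770 bp, assigned to Gatad2a and Mau2. For Srf they were peak3439 at +122481 bp, assigned to Crip3 and Slc22a7, and peak3440 at -226659 bp, which was 178 bp upstream of the TSS of Rpl7l1.

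The 6 genes fell into 6 different classes of domain length, which moves with the share of genes that have a peak. That share was 8.88% up to 50 kb, the class of Mef2b, and 15.4% from 50 to 100 kb, the class of Srf. It was 27.7% from 100 to 250 kb, where Mef2d fell, and 43.4% from 250 to 500 kb, where Mef2a fell. From 500 to 1000 kb, the class of Myocd, it was 48.1%, and above 1000 kb, the class of Mef2c, it was 40.7%. The 3 genes with a peak had domains of 170405, 418802 and 619336 bp, and the longest and the 2 shortest domains of the family were empty.

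**Figure D3:**
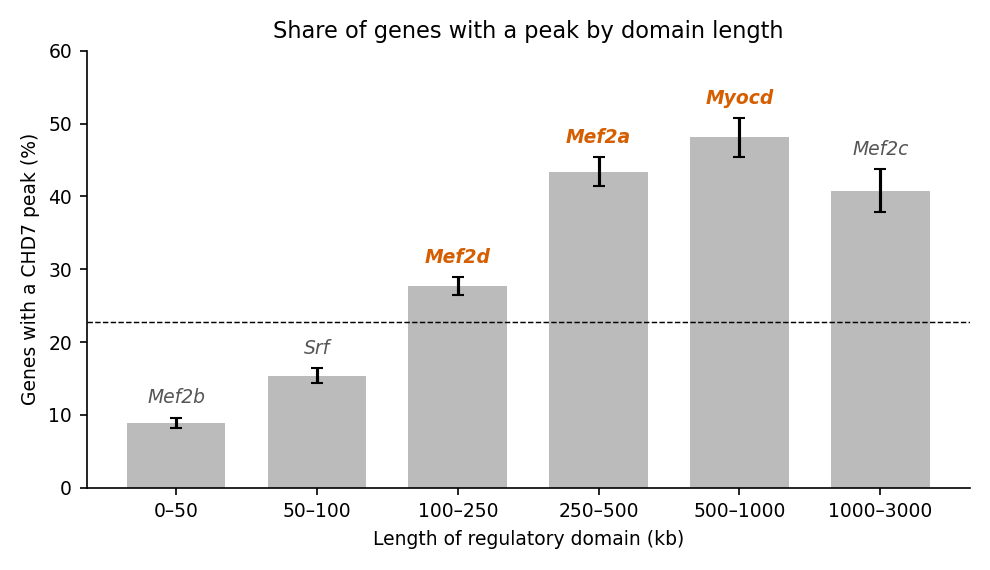
Share of protein-coding genes with at least 1 CHD7 peak (vertical axis, %) in 6 classes of domain length (horizontal axis, kb), with Wilson 95% intervals as error bars and the value for all genes, 22.7%, as the dashed line. Each of the 6 genes is named above its own class, in bold where it had a peak, which was the case for Mef2d, Mef2a and Myocd.

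A window that does not depend on neighbouring genes gave another order. Within 500 kb of the TSS, whatever gene they were assigned to, there were 8 peaks for Mef2d, 7 for Mef2b, 3 for Srf, 2 for Mef2a, 1 for Myocd and 0 for Mef2c. The median over all genes was 2, with quartiles at 1 and 4. Mef2d and Mef2b lie among many genes, with 39 and 46 other protein-coding TSSs in the window where the median gene had 15, and 99.4% and 98.1% of all genes had as many peaks as they or fewer. Mef2a had 4 other TSSs in its window, Myocd 3, Srf 36 and Mef2c 0. In 22.7% of all genes the window held no peak, as in Mef2c. These windows were chosen after the peaks had been seen.

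The motifs were searched on both strands of the whole peaks. No exact match to the MEF2 consensus or to the CArG box lay in any of the 3 peaks, and 9.55% and 3.91% of all peaks held one. With up to 1 mismatch allowed, a MEF2 site was found in the peaks of Mef2a and Myocd, and in 61.4% of all peaks, exact matches included. On the same terms a CArG box was found in the same 2 peaks, and in 50.4% of all peaks. At Mef2a the near match to the CArG box lay 80 bp from the midpoint. These letters are a description and carry nothing about which factor was present.

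For the other motifs, counts over 3 peaks are too small to set apart from the shares over all peaks. NKX2-5 (TNAAGTG) had 1 match, in the peak of Myocd, as in 38.2% of all peaks. The motif of the GATA factors, with the letters AGATAA, had none, and 36.8% of all peaks held it. The TEAD motif (CATTCC) and the ISL1 motif (CTAATNG) also had none, with 39.1% and 19% of all peaks holding one. The T-box motif (AGGTGT) was found in the peaks of Mef2a and Mef2d, and in 38% of all peaks. The same pair held the SP/KLF motif (GGGCGG), found in 23.4% of all peaks, with 2 matches at Mef2d and 1 at Mef2a. The CTCF core (GGNGGCAG) occurred once, at Mef2d, and in 27.6% of all peaks. The line for Mef2d printed above shows all 4 of its matches, 2 of SP/KLF, 1 of T-box and 1 of the CTCF core, within 300 bases. Peaks that hold a match were wider than those without for each of the 9 motifs, with medians of 966 bp against 688 bp for MEF2, and none of these motifs overlapped another in the lines shown.

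**Figure D4:**
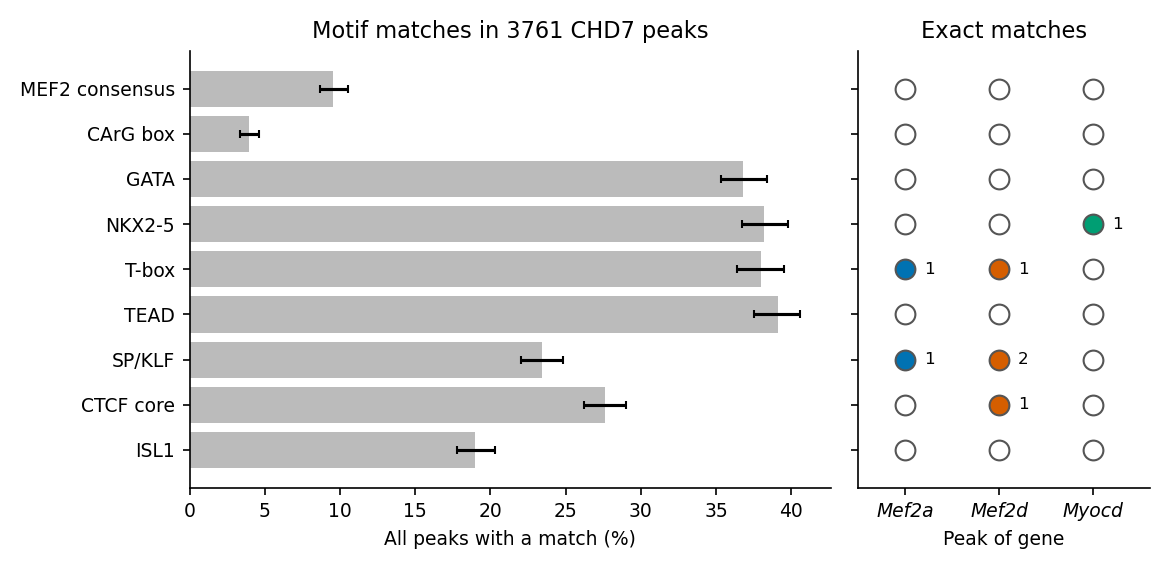
Left, share of all 3761 peaks with at least 1 exact match to each of 9 motifs (horizontal axis, %, with Wilson 95% intervals). Right, a circle for each peak of the 6 genes, filled where the peak holds a match, with the number of matches beside it. The MEF2, CArG, GATA, TEAD and ISL1 rows hold only empty circles.

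Both kinds of site were present at promoters of the family where CHD7 was not called. In RefSeq promoters on GRCm38.p6, taken from 250 bases before to 50 after the start, 5 of the 6 genes had an entry and Myocd had none. The promoter of Srf held 2 CArG boxes, and 1.57% of all 27025 promoters held at least 1. The promoter of Mef2a held 1 match to the MEF2 consensus, as did 3.26% of all promoters. SRF is known to act on its own gene through CArG boxes. The sites are shown on the strand of the gene, with the match in capitals and 10 bases on each side. The first Srf site is at chr17:46556235-46556244 and the second at chr17:46556215-46556224, which is 82 and 62 bp upstream of the RefSeq start, and the Mef2a site is at chr7:67372851-67372860. The nearest CHD7 midpoint was 122522 bp from the second Srf site and 6249 bp from the Mef2a site.
Srf first CArG box: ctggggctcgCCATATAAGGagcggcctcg
Srf second CArG box: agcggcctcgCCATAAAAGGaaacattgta
Mef2a MEF2 site: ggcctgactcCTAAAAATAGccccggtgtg

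Genes that work with MEF2, SRF and myocardin were listed in 5 groups. Of the 62 genes, 22 had a peak in their domain (35.5%, Wilson 95% CI 24.7 to 47.9), beside 22.7% of all genes and 3 of 6 in the family itself. Their domains were longer than those of all genes, with medians of 134093.5 bp and 90182 bp, and domain length moves with the share as shown above. In the basal part of the domain 0 of the 62 genes had a peak, beside 3.16% of all genes. Within 5 kb downstream of the TSS 6 of them did (9.68%), beside 1.7% of all genes, and the difference was not tested. That side was chosen after the peaks of these genes had been seen, all of those within 5 kb being downstream. The 62 genes were also listed with earlier results known, so the 2 shares give no measure of an excess.

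Among the cofactors of SRF and myocardin, 3 of 10 had a peak. Mrtfb, a myocardin-related coactivator, had 2, and its relative Mrtfa had 1 at +27268 bp. Hopx, a homeodomain protein that binds SRF and restrains it, had 1 peak at +4667 bp, in intron 1. Among the regulators of MEF2, 4 of 14 had a peak (28.6%, CI 11.7 to 54.6). Hdac9 had 3 and Hdac4 had 1, and both encode class IIa deacetylases that repress MEF2. Ncoa2, a MEF2 coactivator, had 2, and Map2k5, the kinase above ERK5, had 1.

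Of the 6 upstream factors of Mef2c listed, 2 had a peak and 4 had none. Isl1 had 1, at -199837 bp, and Gata4 had 2, the nearer at +3655 bp. Among targets of SRF, 9 of 20 had a peak (45%, CI 25.8 to 65.8), beside 22.7% of all genes. The median domain of this group was 107512 bp, against 90182 bp over all genes. Its genes were listed with earlier results known, so the share gives no measure of an excess. Tpm1, an actin filament tropomyosin, had 7 of the 19 peaks of the group, in a domain of 578219 bp. Ccn1, a matricellular protein, had 3, the immediate early gene Ier2 had 2, and the smooth muscle myosin gene Myh11 had 2, the nearer at +3315 bp. Among targets of MEF2, 4 of 12 had a peak (33.3%, CI 13.8 to 60.9). Jun had 2, the nearer at +1633 bp, and the muscle creatine kinase gene Ckm, the actin-binding Xin gene Xirp1 and the coactivator gene Ppargc1a had 1 each.

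An exact match to the MEF2 consensus was found in 1 of the 38 peaks of these genes (2.63%), the peak of Hopx, beside 9.55% of all peaks. A CArG box was found in 1 (2.63%), the peak of Tpm1 at +2680 bp in intron 2, beside 3.91% of all peaks. The site of Hopx is at chr5:77110582-77110591 and that of Tpm1 at chr9:67046374-67046383. They are shown because they are the sole exact sites of their kind in the group. Both are printed on the plus strand, and either motif matches equally on both strands.
Hopx MEF2 site: gaagaggccaTTATTTATAAtccccttgta
Tpm1 CArG box: gaattcctttCCTTATATGGaatatctctc

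**Figure D5:**
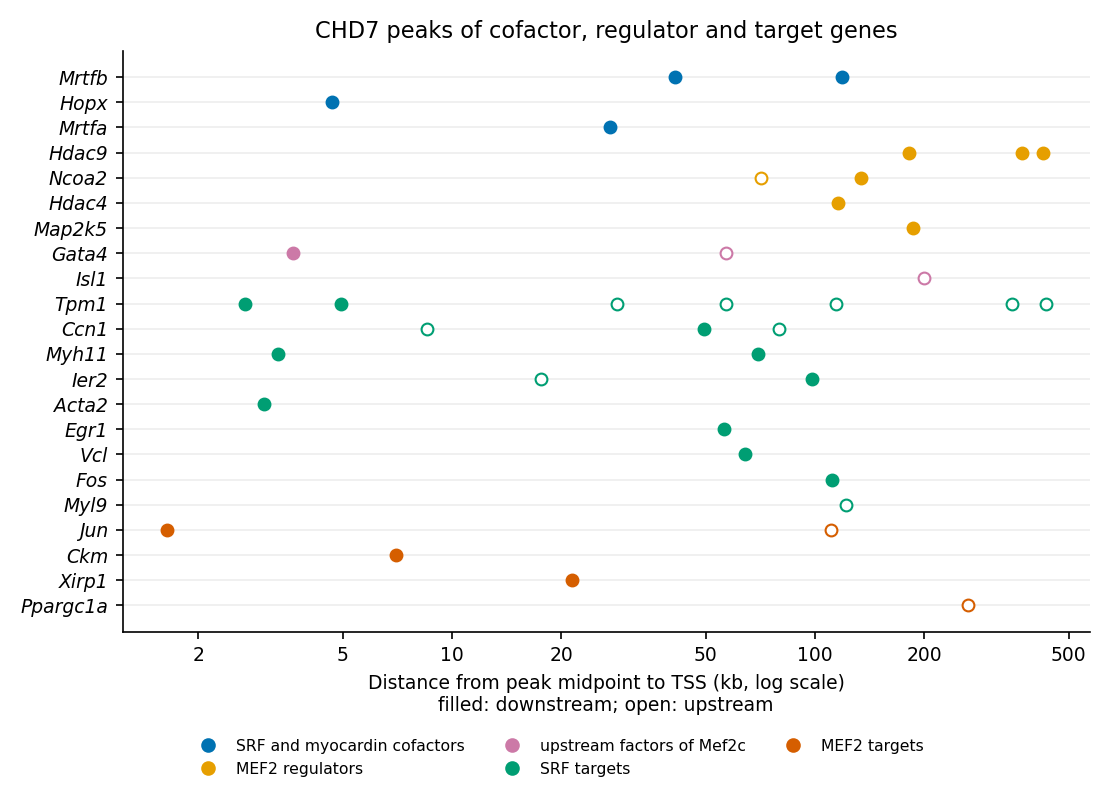
The 38 peaks of the 22 listed genes that had any, 1 point per peak, by distance of the midpoint from the TSS (horizontal axis, kb, log scale) and gene (vertical axis), with the group as colour. Filled points are downstream of the TSS and open points upstream, and Tpm1 has the most, with 7.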

How the data were processed

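CUT&RUN libraries of CP cells at day 5 were made with anti-CHD7, anti IgG or as input (3 replicates each). Per the study's methods and the submitters' processing notes, reads were trimmed with fastp 0.20.1, aligned to mm10 with BWA 0.7.17.4, freed of duplicates with JE-Suite and called with MACS2 2.1.2 against IgG for each sample. The notes also name deepTools 3.1.0. The authors deposited 1 list of peaks that overlapped in at least 2 replicates. Its values are positions in bp, with no score, count or P-value, and the calling threshold and the way peaks were joined are not given in the sources used here. Depth and replicate spread are therefore unknown, and neither the reads nor the control libraries were analysed here.

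Starts were taken to count from 0, and peaks were numbered as listed. Positions were set against GRCm38.p6 and GENCODE M21, with 1 TSS per protein-coding gene for the domains. Motifs were searched on both strands. Repeat-masked bases are the lower-case bases of the genome. Shares carry Wilson 95% intervals, which cover counting error only, and no tests were made. On simulated positions the association function returned the same pairs as a separately written search by the same rule. The motif function returned all exact sites planted in simulated sequence.

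The 6 genes, the 62 related genes and the motifs were chosen with earlier results of these data known. All 62 symbols matched the annotation. Named genes are the 6 members, genes sharing their peaks, genes of the nearest peaks inside and outside each domain, and up to 4 genes with the most peaks in each related group. 1700113A16Rik, Gm44668 and Gm12295 fall outside this rule and were named after their positions were seen. The window of 500 kb, the stretch of 5 kb downstream of the TSS and the uniqueness of 56-base windows were also added then. Alternatives were other TSSs, extensions, association rules and windows, peak edges, wider peaks, merged peaks and looser or narrower motif searches. Python 3.11.15 was used with numpy 2.4.6, pandas 2.3.3, statsmodels 0.14.6, pysam 0.24.0 and matplotlib 3.10.9.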

Additional observations from a re-analysis of the deposited data

How the results depend on the processing

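Mef2a, Mef2d and Myocd were the genes with a peak, and Mef2b, Mef2c and Srf those without, under the most upstream TSS, an extension of 500 kb, the nearest TSS within 1 Mb, any base of the peak in place of the midpoint, and merged peaks. The basal domain alone left 0 of the 6 genes, 0 of their peaks, 0 of the 62 related genes and 693 of all genes (3.16%). Among peaks wider than the median Mef2d had none, which left 2 of the 6 genes, 13 related genes and 2854 of all genes (13%). A window of 100 kb took the peak from Myocd and left 2 of the 6 genes, with 30 of the 62 related genes and 8062 of all genes (36.8%). Under this window the share of the 6 genes was below that of all genes, so the direction depended on the rule. Without Mef2c, left out after the data had been seen, the domains carried 2.29 peaks per Mb in place of 0.993. The nearest TSS within 1 Mb gave 17 related genes and 3105 of all genes (14.2%). With 1 mismatch allowed, 2 peaks of the 6 genes held a MEF2 site and 2 a CArG box, where exact matches gave 0. Each rule admits fewer or more positions or genes, and what lay behind each shift was not tested. No paired analysis was possible because the replicates are joined in 1 list without counts, and leaving out a replicate could not be done. Depth limits what an empty domain can show, and it is unknown.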
